A study of Homo sapiens with 24 samples.

Results

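ACTB, CD44, BTRC, SRF, E2F1 and HMGA2 encode 6 mRNAs that the literature names as targets, or clients, of the RNA-binding protein IGF2BP1. They were taken as that list from the 58676 genes of the count tables. Of the 6 clients, 5 passed the filter on low counts (at least 1 CPM, the read count scaled to the library's total of gene reads, in at least 2 libraries), which left 13136 genes for testing. These 5 were above 1 CPM in every library, and CD44 was not tested.

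The libraries came from HepG2, a human liver cancer cell line, transfected with a control siRNA (siControl) or with an siRNA to IGF2BP1, IGF2BP2 or IGF2BP3 (siIGF2BP1, siIGF2BP2 and siIGF2BP3). At 48 h after re-seeding, transcription was blocked with actinomycin D at 5 µg per ml, and cells were collected after 0, 3 or 6 h of the drug. Polyadenylated RNA was sequenced in 2 replicates of each of the 12 combinations, 24 libraries in all, with ERCC synthetic RNAs added in a fixed volume per µg of total RNA. The question asked of each client was whether its level, or the speed at which it was lost, differed when one of the IGF2BP proteins was depleted. All groups share the parental line and the transfection reagent, and the 3 knockdowns are compared with the same siControl libraries. Per the labels, a transfected plate was divided into the plates of the 3 time points, so the 6 libraries of a condition are not 6 separate transfections. The study calls the replicates independent, but the labels do not say whether they came from separate cultures, and p-values measure only the spread between these libraries.

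IGF2BP1 is an oncofetal protein, made in the embryo and in many tumours and low in most adult tissues. It binds mRNA through paired KH domains, mostly in the 3′ untranslated region (3′ UTR), and is known both for carrying mRNAs within the cell and for shielding them from decay. Its first known client was the ACTB mRNA, which it binds at a short element called the zipcode. IGF2BP2 and IGF2BP3 share the domain arrangement of IGF2BP1, and all of the family have been described as readers of methylated bases in mRNA.

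The zipcode is shown first because it is the best known binding site of the protein in any of the 6 mRNAs. The search was for CGGAC followed on the sense strand, after 10 to 25 bases, by ACACCC, the words bound by the KH domains. ACTB (ENSG00000075624.14, hg38 chr7:5526409-5563902, minus strand) held 1 such pair in its 600 base 3′ UTR. It starts at base 2 after the stop codon, at hg38 chr7:5527719-5527746 on the minus strand, and the 2 words are 17 bases apart. In the sequence, read 5′ to 3′, capitals mark these words.
ACTB zipcode: CGGACtatgacttagttgcgttACACCC
None of the other 5 client 3′ UTRs held the pair. It was present in 13 of the 11361 annotated 3′ UTRs of genes tested, or 0.114%. The searched words are those of the ACTB zipcode itself, so its presence there and its rarity elsewhere follow from the pattern. Looser forms of the site were not searched.

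HMGA2 is the client with a different kind of site, the seed match of the let-7 microRNAs, a family that represses growth-promoting mRNAs in differentiated cells. Its 3′ UTR is shown because IGF2BP1 has been described as shielding HMGA2 mRNA from let-7. The mature let-7a, as given by RefSeq, has its seed (bases 2 to 8) in capitals, and the 9 mature let-7 family members found share that seed.
hsa-let-7a-5p: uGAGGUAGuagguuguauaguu
The 2999 base 3′ UTR of HMGA2 (ENSG00000149948.13, hg38 chr12:65824460-65966291, plus strand) held 4 copies of CTACCTC, the 7 bases that pair with the seed. Each is printed with the 15 bases before it and with the match in capitals, in order from the stop codon.
HMGA2 site at base 21, hg38 chr12:65963298-65963319: gccaacgttcgatttCTACCTC
HMGA2 site at base 1256, hg38 chr12:65964533-65964554: ccccactactcaataCTACCTC
HMGA2 site at base 1668, hg38 chr12:65964945-65964966: ttgacttgcaaagacCTACCTC
HMGA2 site at base 2521, hg38 chr12:65965798-65965819: aatcaaaacacactaCTACCTC
At least 1 copy was present in 11.1% of the 3′ UTRs of genes tested, and 0.121% of the 1648 regions of 80 to 125% of its length held as many as HMGA2. The other 5 clients held none. These matches describe letters in the reference and do not show binding.

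Shorter words were counted as well: GGAC, the core around which the m6A mark is most often placed, and ATTTA, the AU-rich pentamer found in many unstable mRNAs. Copies of GGAC numbered 2 in ACTB, 4 in CD44, 12 in BTRC, 9 in SRF, 4 in E2F1 and 7 in HMGA2, and 84.3% of all the 3′ UTRs had at least 1. The longer word TGGAC, which overlaps GGAC, was found 6 times in BTRC, 3 times in SRF, 2 times in HMGA2 and 1 time in CD44, and 61.8% of the 3′ UTRs had it. ATTTA was found 10 times in HMGA2, 7 in CD44, 6 in E2F1, 5 in BTRC, 3 in SRF and 1 in ACTB, against 72.7% of 3′ UTRs with at least 1. For GGAC, between 21.3% and 80.4% of 3′ UTRs of like length held as many copies as the client. For ATTTA the range was 14% to 80.1%. The clients thus had counts of both words that are common for their lengths. The zipcode pair, a pattern taken from ACTB itself, and the repeated let-7 match in HMGA2 are rare.

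**Figure D1:**
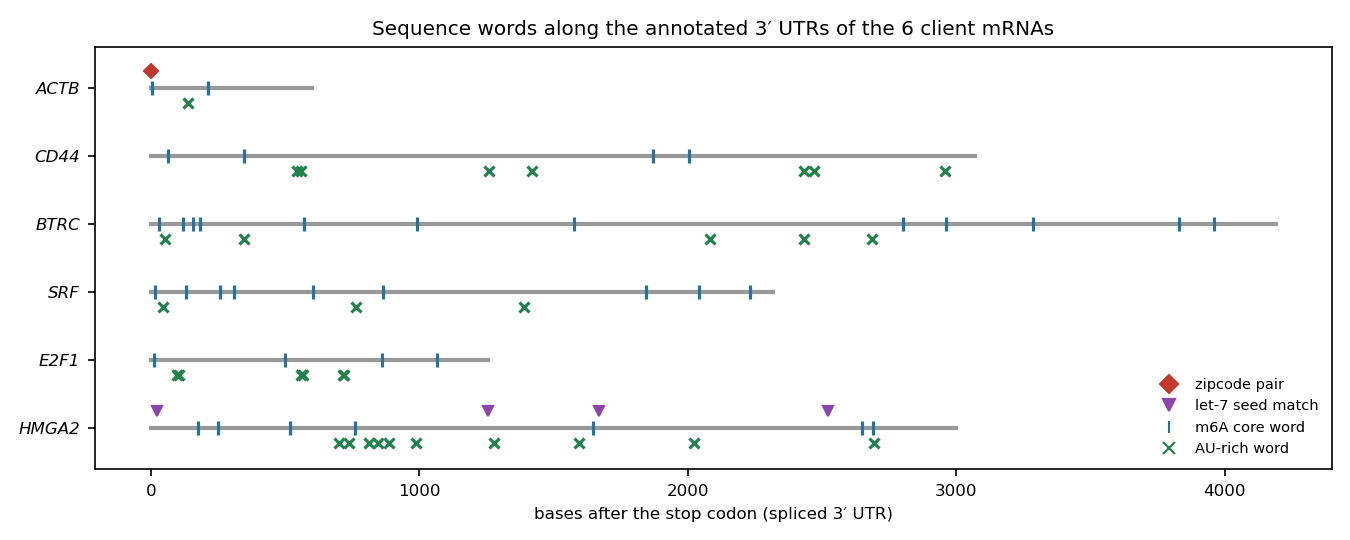
Sequence words along the annotated 3′ UTRs of the 6 clients; the horizontal axis is the number of bases after the stop codon, grey lines are the 3′ UTRs and symbols mark where each word starts. The zipcode pair of ACTB lies at base 2, and the 4 let-7 seed matches of HMGA2 run from base 21 to base 2521.

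Gene reads ranged from 31843248 to 74252042 per library and ERCC reads from 50889 to 119088. Each siRNA lowered its own target: over the 3 times, 17.7% of the IGF2BP1 mRNA, 23% of the IGF2BP2 mRNA and 29% of the IGF2BP3 mRNA were left relative to siControl, with no overlap between libraries. All 9 HepG2 markers were present (ALB at 10700 to 17400 CPM in all libraries), although TTR, a plasma transport protein, was at only 38.6 to 77.6 CPM. Of the markers of other cells, PTPRC (leukocytes) had at most 1 read and COL1A1 (fibroblasts) at most 14 reads per library, and PECAM1 (endothelium) was at 0.486 to 1.37 CPM.

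CD44, a cell surface receptor for hyaluronan that takes part in adhesion and invasion, was at the limit of detection. The gene (ENSG00000026508.18, hg38 chr11:35138882-35232402, plus strand) had 19 reads in all 24 libraries together. Of these, 12 libraries had 1 to 3 reads each and the others had 0. The 4 siControl libraries at 0 and 3 h had 0 reads, both siControl libraries at 6 h had 1 read, and the highest level in any library was 0.0681 CPM, in siIGF2BP1 at 3 h. A library with 0 reads allows a level of up to 0.0404 CPM in the deepest and 0.0853 CPM in the shallowest of the libraries with 0 reads, counting error only. No difference in CD44 was detectable at this depth, and neither its level nor its decay could be compared.

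The other 5 clients ranged from one of the most abundant mRNAs of the line to a scarce one. Per length, in RPKM (CPM divided by the transcript length in kilobases) in siControl at 0 h, the mean was 2020 ± 23.4 (SD, n = 2) for ACTB, 65.3 ± 1.31 for HMGA2, 21.4 ± 0.537 for SRF, 15.5 ± 1.15 for E2F1 and 4.94 ± 0.145 for BTRC. No neighbours in this order overlapped. ACTB stood above 99.8% of the 11386 tested genes with a canonical coding transcript, HMGA2 above 91.9%, SRF above 74%, E2F1 above 65.8% and BTRC above 34.8%. HMGA2, an embryonic gene that is silent in most adult tissues, was thus well expressed in this line.

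Before actinomycin D, a level difference was tested with edgeR on counts scaled by TMM (which sets the bulk of genes to no change), with Benjamini-Hochberg adjusted p-values over all genes tested. The knockdown of IGF2BP1 moved 2 of the 5 clients in opposite directions, with ACTB higher and HMGA2 lower. A call was made for 15.9% of all genes in this comparison. In bulk RNA a small change in every cell and a larger one in some of the cells cannot be told apart. Where libraries of a knockdown are said below to lie above or below siControl, this describes 2 libraries against 2. The share of all genes that separate in this way was not counted, so such positions are not a result about the clients. With siIGF2BP2, 2 of 5 were called (BTRC higher and HMGA2 lower) against 12.1% of all genes, and with siIGF2BP3 1 of 5 (BTRC higher) against 9.39%. Median log2 differences over the 5 clients were -0.02, 0.01 and -0.07 in siIGF2BP1, siIGF2BP2 and siIGF2BP3, beside 0.01, 0.02 and 0.00 over all genes, and 2, 3 and 1 of the 5 client differences were above 0.

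ACTB encodes cytoplasmic β-actin, the main building block of the actin cytoskeleton. At 0 h it was at 3690 and 3630 CPM in siControl, 4140 and 4090 in siIGF2BP1, 3700 and 3620 in siIGF2BP2, and 3550 and 3550 in siIGF2BP3. Both siIGF2BP1 libraries were thus above all the others, and both siIGF2BP3 libraries lay just below siControl. The log2 difference was 0.19 ± 0.02 (SE) in siIGF2BP1 (adjusted p = 1.25e-08), 114% of siControl. It was 0.01 (adjusted p = 0.848) in siIGF2BP2 and -0.04 (adjusted p = 0.288) in siIGF2BP3. When libraries were scaled by their ERCC reads instead, the siIGF2BP1 difference was 0.16 (adjusted p = 0.334) and was no longer called. Reads that match several places were left out of the counts, and because ACTB has many processed pseudogene copies and a near relative in ACTG1, its absolute level is uncertain.

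HMGA2 encodes an architectural chromatin protein that bends DNA and opens chromatin in growing embryonic and tumour cells. At 0 h it was at 273 and 265 CPM in siControl and at 217 and 205 CPM in siIGF2BP1. It was at 239 and 238 CPM in siIGF2BP2 and at 244 and 260 CPM in siIGF2BP3. All 6 knockdown libraries lay below both siControl libraries, and the 2 siIGF2BP1 libraries were the lowest. In siIGF2BP1 HMGA2 fell by 0.33 ± 0.04 on the log2 scale, to 79.7% of siControl (adjusted p = 3.76e-08). It fell by 0.16 ± 0.04 in siIGF2BP2 (adjusted p = 0.00267), and the difference in siIGF2BP3 was -0.09 (adjusted p = 0.15). Under ERCC scaling the siIGF2BP1 decrease was still called (-0.36, adjusted p = 0.000683), whereas the difference in siIGF2BP2 was -0.09 (adjusted p = 0.592). The siIGF2BP2 call was also lost without the first siControl library at 0 h (-0.14, adjusted p = 0.0731).

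BTRC (ENSG00000166167.17, hg38 chr10:101354033-101557321, plus strand) encodes β-TrCP1, the substrate-recognising subunit of a ubiquitin ligase that marks β-catenin and IκB for destruction. Its 0 h levels were 30.4 and 29.1 CPM in siControl, 31.3 and 32.8 in siIGF2BP1, 34 and 39.2 in siIGF2BP2, and 37 and 36.6 in siIGF2BP3. Every knockdown library was above both siControl libraries, and the replicates of siIGF2BP2 were the furthest apart. BTRC rose by 0.30 ± 0.07 on the log2 scale in siIGF2BP2 (adjusted p = 0.00336) and by 0.31 ± 0.07 in siIGF2BP3 (adjusted p = 0.00387), both 124% of siControl. The difference in siIGF2BP1 was 0.12 ± 0.07 (adjusted p = 0.306). ERCC scaling gave 0.39 (adjusted p = 0.00673) in siIGF2BP2 and 0.39 (adjusted p = 0.00855) in siIGF2BP3. Each call depended on single libraries: without the second siControl library at 0 h the adjusted p was 0.0834 in siIGF2BP2 and 0.0629 in siIGF2BP3, and without the second siIGF2BP2 library it was 0.242.

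SRF and E2F1 are the transcription factors of the list. SRF (serum response factor, ENSG00000112658.7, hg38 chr6:43171269-43181506, plus strand) drives actin and immediate early genes, and was at 88.9 and 92.1 CPM in siControl, 85.5 and 84.5 in siIGF2BP1, 94.7 and 87.1 in siIGF2BP2, and 81.5 and 83.6 in siIGF2BP3. The siIGF2BP1 and siIGF2BP3 libraries lay below siControl, with log2 differences of -0.07 (adjusted p = 0.368) and -0.13 (adjusted p = 0.0895) that were not called. E2F1 (ENSG00000101412.12, hg38 chr20:33675477-33686385, minus strand), which switches on genes of DNA replication, was at 39.5 and 43.9 CPM in siControl, 38.7 and 42.9 in siIGF2BP1, 37.1 and 37.4 in siIGF2BP2, and 41.2 and 38.2 in siIGF2BP3. Its libraries overlapped siControl in siIGF2BP1 and siIGF2BP3 and lay below it in siIGF2BP2, where the log2 difference was -0.16 (adjusted p = 0.172). Neither factor was called in any knockdown at 0 h, and 95% intervals of the log2 differences reached from -0.30 to 0.13 over both genes and all knockdowns.

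**Figure D2:**
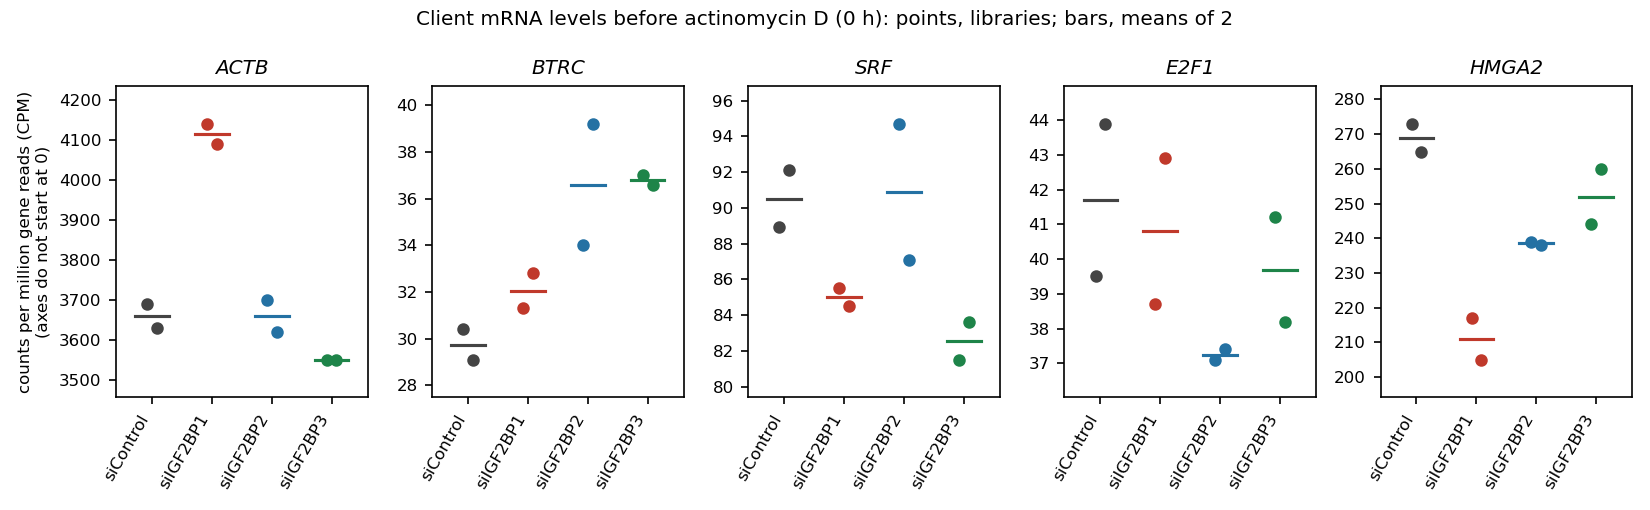
Levels of the 5 tested clients at 0 h in CPM (vertical axes, not starting at 0) in each condition; points are the 2 libraries and bars their means. ACTB in siIGF2BP1, at 4140 and 4090 CPM, is above the other libraries, HMGA2 is lowest in siIGF2BP1 at 217 and 205 CPM, and BTRC is higher than siControl in every knockdown library.

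Averaging each condition over 0, 3 and 6 h drew on 6 libraries a condition, and more calls were made for clients and for genes in general. The 3 and 6 h libraries were taken after transcription was blocked. This mean therefore mixes the level before the drug with the amount left after it, and a call on it is not a call at 0 h. With siIGF2BP1, 4 of 5 clients were called against 39.7% of all genes: ACTB (0.17) and BTRC (0.25) rose, and SRF (-0.12) and HMGA2 (-0.30) fell on the log2 scale. With siIGF2BP2, 3 of 5 were called against 33.8%: BTRC (0.28) rose, and E2F1 (-0.16) and HMGA2 (-0.19) fell. With siIGF2BP3, 4 of 5 were called against 32.3%: BTRC (0.43) rose, and ACTB (-0.07), SRF (-0.10) and HMGA2 (-0.11) fell. On the TMM scale BTRC and HMGA2 were thus called in every knockdown, in opposite directions, while under ERCC scaling HMGA2 was called only in siIGF2BP1.

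The scale mattered for several of these differences, since ERCC scaling moved the median of all genes to 0.06, 0.15 and 0.18 in siIGF2BP1, siIGF2BP2 and siIGF2BP3. BTRC was higher on that scale too, with log2 differences of 0.31, 0.42 and 0.61 (adjusted p = 7.74e-06, 1.87e-10 and 6.69e-21), and so was ACTB in siIGF2BP1 (0.23, adjusted p = 6.58e-06). HMGA2 remained called as lower in siIGF2BP1 (-0.24, adjusted p = 5.07e-06). In siIGF2BP2 its ERCC-scaled difference was -0.06 (adjusted p = 0.33) and in siIGF2BP3 it turned to 0.07 (adjusted p = 0.193). ACTB turned from -0.07 to 0.11 in siIGF2BP3 (adjusted p = 0.0324) and from -0.03 (adjusted p = 0.07) to 0.11 in siIGF2BP2 (adjusted p = 0.0359), both below the shift of all genes. The SRF and E2F1 calls were all lost under ERCC scaling, and SRF in siIGF2BP2, which was not called under TMM, became 0.16 (adjusted p = 0.006), close to the shift of 0.15.

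After transcription was blocked, the amount of each client left was measured per ERCC read, because most mRNAs fall and TMM would hide a common loss. The loss was tested as the change over 6 h from a straight line through the log2 values, fitted with edgeR. In every condition 4 of the 5 clients fell, all but ACTB. Of all genes, siControl had 80.3% that fell, siIGF2BP1 69.1%, siIGF2BP2 71.3% and siIGF2BP3 67.2%, with median changes of -0.89, -0.69, -0.71 and -0.66 respectively. ERCC was added per µg of RNA after extraction, so it does not correct for cell number or for RNA lost before that step.

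BTRC had the shortest half-lifetime of the clients in siControl. In that condition 55.9 and 57.6% of its 0 h mean was left at 3 h and 31.8 and 32.3% at 6 h. At 3 h 71.7 and 62.4% was left in siIGF2BP1, 56.2 and 57.9% in siIGF2BP2, and 67.3 and 69.4% in siIGF2BP3. At 6 h 45.5 and 40.3% was left in siIGF2BP1, 29.8 and 39.2% in siIGF2BP2, and 45.7 and 38.9% in siIGF2BP3. The libraries of siIGF2BP1 and siIGF2BP3 were above siControl at both times, and those of siIGF2BP2 overlapped it. All genes together were also shifted toward slower loss, by medians of 0.19, 0.17 and 0.22 in siIGF2BP1, siIGF2BP2 and siIGF2BP3. How many of them separate from siControl in this way was not counted. The log2 change over 6 h was -1.64 ± 0.12 in siControl (adjusted p = 3.43e-11), -1.22 in siIGF2BP1, -1.53 in siIGF2BP2 and -1.24 in siIGF2BP3. First-order decay, the model of the study, gave a half-lifetime of 3.66 h in siControl (3.25 to 4.25 h over the 8 ways of taking 1 library per time), 5.05 h in siIGF2BP1 (4.37 to 5.94), 3.8 h in siIGF2BP2 (3.21 to 4.68) and 5.13 h in siIGF2BP3 (4.64 to 5.7).

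SRF mRNA was at 65.5 and 64.2% of its 0 h mean at 3 h and at 46.2 and 39% at 6 h in siControl. At 6 h it was at 46.8 and 46% in siIGF2BP1, 46.3 and 51% in siIGF2BP2, and 52.9 and 51.5% in siIGF2BP3. Its siIGF2BP3 libraries were above siControl at both times (69.3 and 67.8% at 3 h). Its siIGF2BP2 libraries were above it at 6 h only, and barely so (46.3 against 46.2%). E2F1 had fallen to 59.7 and 60.8% at 3 h and to 53.5 and 44.6% at 6 h in siControl. At 3 h it was at 67.8 and 58.3% in siIGF2BP1, 61.3 and 65.3% in siIGF2BP2, and 67.1 and 69.3% in siIGF2BP3. At 6 h it was at 57.8 and 47.7% in siIGF2BP1, 48.4 and 54.3% in siIGF2BP2, and 59.2 and 48.2% in siIGF2BP3. The siIGF2BP2 and siIGF2BP3 libraries were above siControl at 3 h, and all of these E2F1 groups overlapped siControl at 6 h. These SRF and E2F1 positions were not set against the share of all genes, which were themselves shifted toward slower loss. In siControl the log2 change over 6 h was -1.23 ± 0.08 for SRF (adjusted p = 5.17e-12) and -1.03 ± 0.14 for E2F1 (adjusted p = 4.16e-07). Half-lifetimes in siControl, siIGF2BP1, siIGF2BP2 and siIGF2BP3 were 4.84, 5.13, 5.29 and 5.92 h for SRF and 4.82, 5.32, 5.26 and 5.99 h for E2F1. E2F1 lost more in the first 3 h (-0.73 on the log2 scale in siControl) than in the next 3 h (-0.30), so a single rate describes it less well than BTRC (-0.82 and -0.82).

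HMGA2 was lost slowly. In siControl 82.2 and 82.1% was left at 3 h and 71 and 70% at 6 h. At 3 h 93.5 and 85.4% was left in siIGF2BP1, 78.7 and 80.8% in siIGF2BP2, and 81.2 and 89.2% in siIGF2BP3. At 6 h 83.1 and 83.1% was left in siIGF2BP1, 69.7 and 85.2% in siIGF2BP2, and 81.6 and 79.7% in siIGF2BP3. The siIGF2BP1 libraries were above siControl at 3 and 6 h and the siIGF2BP3 libraries at 6 h only. The siIGF2BP2 libraries at 6 h lay on both sides of siControl. Over all genes, the median 6 h change was also shifted toward slower loss, by 0.19, 0.17 and 0.22 in siIGF2BP1, siIGF2BP2 and siIGF2BP3. The log2 change over 6 h was -0.50 ± 0.09 in siControl (adjusted p = 2.57e-05), -0.27 in siIGF2BP1 (adjusted p = 0.0113), -0.37 in siIGF2BP2 (adjusted p = 0.000789) and -0.31 in siIGF2BP3 (adjusted p = 0.00405). Single 0 h libraries decided the calls in siIGF2BP1 (-0.22, adjusted p = 0.0878, without its first) and siIGF2BP3 (-0.22, adjusted p = 0.0732, without its second). Half-lifetimes were 11.2 h in siControl (8.45 to 17.2), 20.3 h in siIGF2BP1 (13.8 to 38.1), 11.7 h in siIGF2BP2 (9.69 to 14.6) and 15.6 h in siIGF2BP3 (10.4 to 31.7), and the ranges overlapped. The HMGA2 level was therefore lower in siIGF2BP1 while the fraction left at 6 h was not smaller.

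ACTB showed no measurable loss within 6 h. In siControl it was at 104 and 101% of its 0 h mean at 3 h and at 96.7 and 87% at 6 h. At 6 h it was at 104 and 101% in siIGF2BP1, 93.2 and 107% in siIGF2BP2, and 107 and 99.8% in siIGF2BP3. The spread between replicates was as large as the change, and the 2 siControl libraries at 0 h themselves stood at 107 and 92.5% of their mean. The log2 change over 6 h was -0.12 ± 0.08 (adjusted p = 0.16) in siControl, and 0.04, 0.00 and 0.05 in siIGF2BP1, siIGF2BP2 and siIGF2BP3 (adjusted p = 0.676, 0.988 and 0.6). Without the second siControl library at 0 h, the siControl change was -0.24 (adjusted p = 0.00901). No half-lifetime is given for ACTB because the libraries allowed decay in only some of the 8 combinations. Relative to the rest of the transcriptome ACTB rose over 6 h (0.75 under TMM in siControl, adjusted p = 2.56e-09), as did HMGA2 (0.37, adjusted p = 1.16e-07).

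By half-lifetime the order in siControl was BTRC, then E2F1 and SRF, then HMGA2. The ranges of E2F1 (4.42 to 5.27 h) and SRF (4.22 to 5.67 h) overlapped, and that of SRF also met the top of the BTRC range (4.25 h). Over all genes with measurable decay, the medians for siControl, siIGF2BP1, siIGF2BP2 and siIGF2BP3 were 5.88, 6.51, 6.21 and 6.61 h. In the same order of conditions, BTRC had a longer half-lifetime than 31.9, 41, 31.2 and 41% of those genes, SRF than 42.7, 41.5, 43.7 and 46.2%, E2F1 than 42.6, 42.8, 43.5 and 46.6%, and HMGA2 than 71.5, 81.7, 71.9 and 76.7%.

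**Figure D3:**
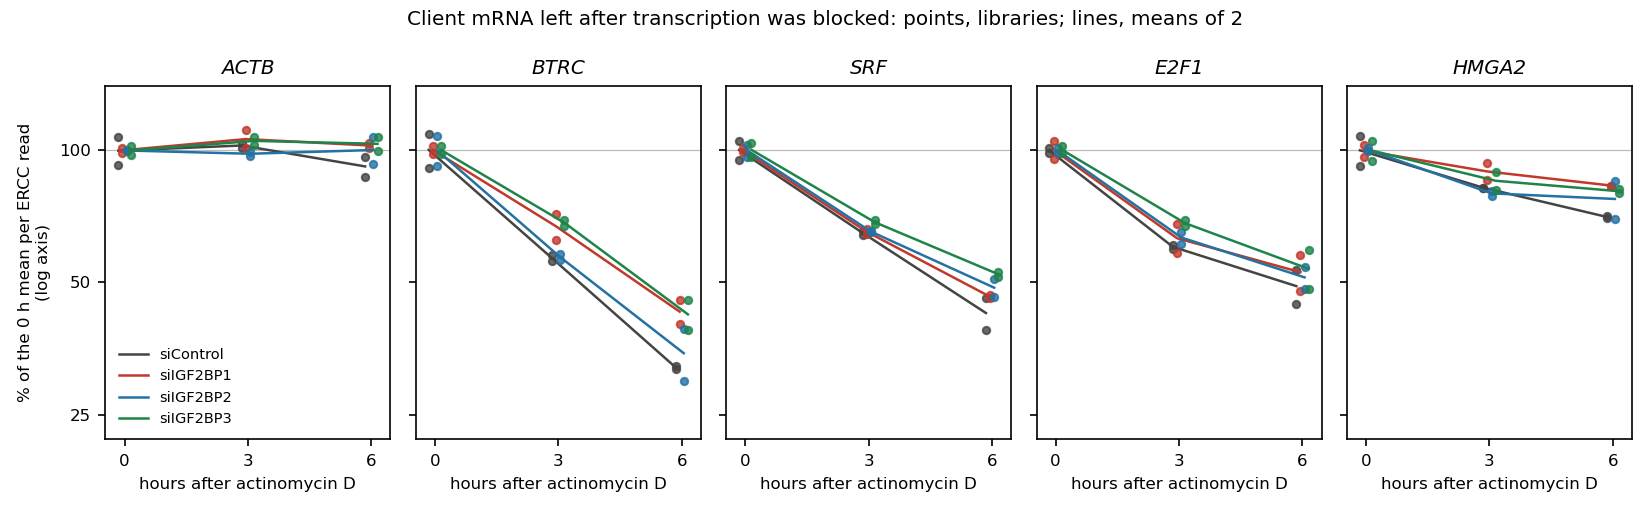
Amount of each tested client per ERCC read, in percent of its 0 h mean (vertical log axis), against hours after actinomycin D; points are libraries, shifted sideways by condition, and lines join the means of 2. BTRC falls to 31.8 and 32.3% in siControl at 6 h, SRF to 46.2 and 39% and E2F1 to 53.5 and 44.6%, HMGA2 to 71 and 70%, and ACTB stays near 100% in all conditions.

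The question whether a knockdown changed the speed of loss was tested as the difference between its 6 h change and that of siControl. No client was called: 0 of 5 in siIGF2BP1, beside 0.0152% of all genes, 0 of 5 in siIGF2BP2, beside 0%, and 0 of 5 in siIGF2BP3, beside 0.0228% (edgeR). Without adjustment, 1, 0 and 2 clients had a p under 0.05, beside 10.9, 6.82 and 16.1% of all genes, and DESeq2 also called 0 clients in each. All 5 differences were positive in every knockdown, that is, toward slower loss, with medians of 0.16, 0.12 and 0.19. All genes together were shifted in the same direction, with medians of 0.19, 0.17 and 0.22, and under TMM scaling those medians were -0.01, -0.02 and -0.01. The client medians lay below the all-gene medians in each knockdown.

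The largest differences were for BTRC, at 0.42 ± 0.17 in siIGF2BP1 (95% interval 0.07 to 0.77, adjusted p = 0.427) and 0.40 ± 0.17 in siIGF2BP3 (0.05 to 0.75, adjusted p = 0.29), beside 0.11 (-0.24 to 0.45, adjusted p = 0.781) in siIGF2BP2. With each library left out in turn, BTRC ranged from 0.31 to 0.53 in siIGF2BP1 (lowest adjusted p = 0.0953) and from 0.29 to 0.51 in siIGF2BP3 (lowest adjusted p = 0.068). For SRF the difference was 0.29 in siIGF2BP3 (0.06 to 0.52, adjusted p = 0.277). For HMGA2 it was 0.24 (-0.03 to 0.50, adjusted p = 0.469) in siIGF2BP1, 0.13 in siIGF2BP2 and 0.19 in siIGF2BP3. For ACTB it was 0.16, 0.12 and 0.17 and for E2F1 0.10, 0.07 and 0.13, with all intervals including 0. On the TMM scale, that is, relative to other genes, BTRC differed by 0.22 (-0.05 to 0.49) in siIGF2BP1 and by 0.17 (-0.10 to 0.45) in siIGF2BP3, and SRF by 0.07 (-0.08 to 0.22) in siIGF2BP3. In siIGF2BP1 the TMM differences were 0.04 (-0.09 to 0.16) for HMGA2, -0.03 (-0.23 to 0.16) for ACTB, -0.07 (-0.22 to 0.08) for SRF and -0.09 (-0.39 to 0.22) for E2F1. All of these intervals include 0.

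**Figure D4:**
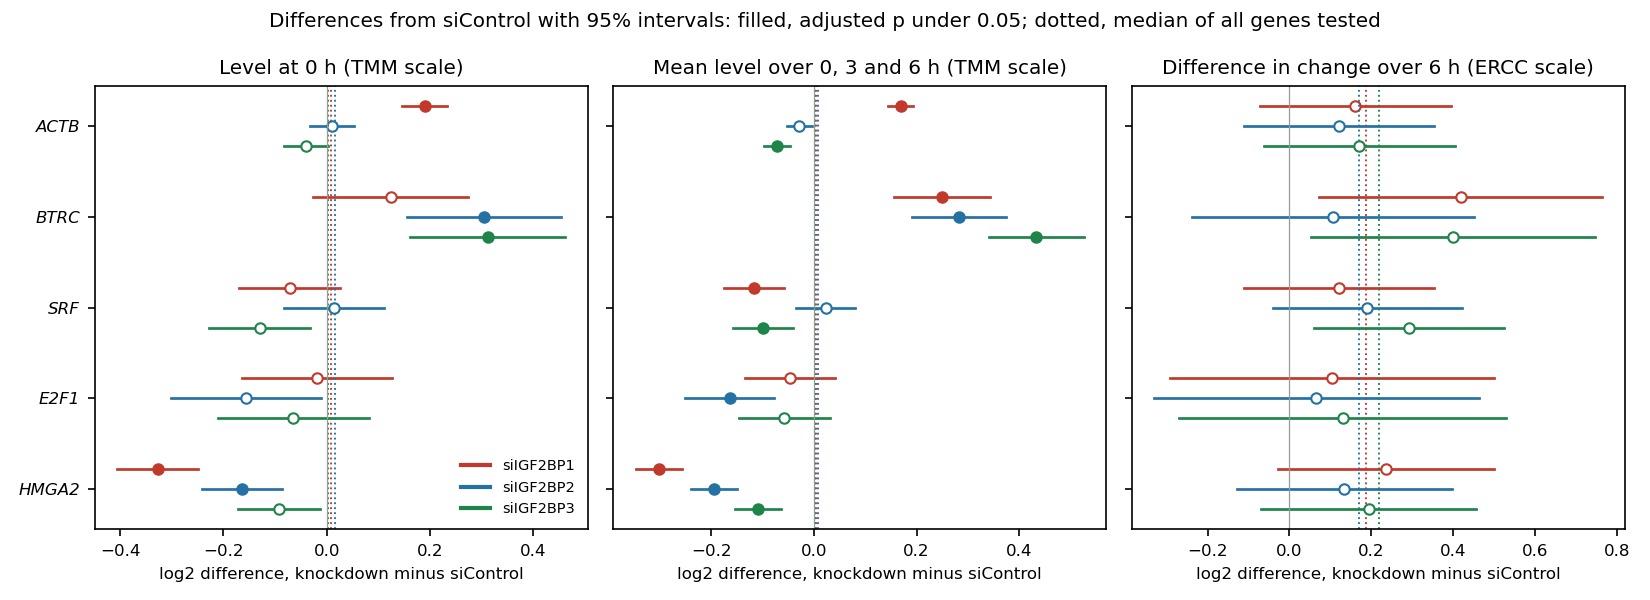
Differences of the 5 clients from siControl (horizontal axes, log2) with 95% intervals, for the level at 0 h and the mean level over the 3 times on the TMM scale and for the change over 6 h on the ERCC scale; filled symbols have an adjusted p under 0.05 and dotted lines are the medians of all genes tested. In the third panel no symbol is filled and the clients lie around the all-gene medians of 0.19, 0.17 and 0.22.

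The knockdowns were also compared with each other, on the mean level over the 3 times. Between siIGF2BP1 and siIGF2BP2, 4 of 5 clients were called, against 43% of all genes, between siIGF2BP1 and siIGF2BP3 3 of 5, against 37.9%, and between siIGF2BP2 and siIGF2BP3 4 of 5, against 30.4%. ACTB was 0.20 higher on the log2 scale in siIGF2BP1 than in siIGF2BP2 (adjusted p = 2.77e-16) and 0.24 higher than in siIGF2BP3 (adjusted p = 1.84e-18), and under ERCC scaling it was 0.12 higher than in either (adjusted p = 0.0277 and 0.0256). HMGA2 was lower in siIGF2BP1 than in siIGF2BP2 (-0.11, adjusted p = 0.000167) and than in siIGF2BP3 (-0.19, adjusted p = 7.60e-09), and under ERCC scaling by -0.19 and -0.31 (adjusted p = 0.000561 and 1.38e-09). The higher ACTB and lower HMGA2 in siIGF2BP1 were thus larger than in the other knockdowns on both scales. BTRC was lower in siIGF2BP1 than in siIGF2BP3 (-0.18, adjusted p = 0.00149). The speed of loss was called for 0 of 5 clients in each of these 3 comparisons, beside 0% of all genes in each by edgeR. At an unadjusted p under 0.05 there were 0 clients in each, and DESeq2 called 0.

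Of the 5 closest relatives of the clients, 1 was called at 0 h in each knockdown. Of all genes, 15.9, 12.1 and 9.39% were called in siIGF2BP1, siIGF2BP2 and siIGF2BP3. HMGA1, the paralog of HMGA2, fell by 0.22 at 0 h in siIGF2BP1 (adjusted p = 1.56e-06) but rose by 0.14 in siIGF2BP2 (adjusted p = 0.00224), and under ERCC scaling these were -0.25 (adjusted p = 0.0369) and 0.22 (adjusted p = 0.0884). ACTG1, the other cytoplasmic actin, differed by -0.01 in siIGF2BP1 (adjusted p = 0.871), where ACTB rose, and fell by 0.14 in siIGF2BP3 (adjusted p = 7.00e-05; -0.06, adjusted p = 0.738, under ERCC scaling). FBXW11, E2F2 and E2F3 were not called at 0 h in any knockdown.

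Of 18 other mRNAs reported as clients, 15 were tested, and at 0 h 3 rose in siIGF2BP1, 6 in siIGF2BP2 and 4 in siIGF2BP3, while 0 fell in any. Calls in either direction were made for 15.9, 12.1 and 9.39% of all genes. Their medians were 0.07, 0.08 and 0.09, beside 0.01, 0.02 and 0.00 over all genes. IGF2, the growth factor mRNA that gave the proteins their name, rose by 0.46 in siIGF2BP1 (adjusted p = 1.72e-11), by 0.12 in siIGF2BP2 (adjusted p = 0.0339) and by 0.15 in siIGF2BP3 (adjusted p = 0.00871). Under ERCC scaling the IGF2 call held in siIGF2BP1 (0.43, adjusted p = 8.50e-06) but not in siIGF2BP2 (0.20, adjusted p = 0.117) or siIGF2BP3 (0.23, adjusted p = 0.0758). FSCN1, an actin-bundling protein, rose most in siIGF2BP2 (0.37, adjusted p = 8.23e-08), a call that held under ERCC scaling (0.45, adjusted p = 2.80e-05). It rose by 0.26 in siIGF2BP1 (adjusted p = 3.76e-05), where ERCC scaling gave 0.23 (adjusted p = 0.111). In siIGF2BP3 FSCN1 differed by 0.11 (adjusted p = 0.144). MKI67, a proliferation marker, rose by 0.28 in siIGF2BP3 (adjusted p = 6.07e-09) and by 0.18 in siIGF2BP2 (adjusted p = 1.84e-05). Under ERCC scaling 1, 2 and 1 of the 15 were called at 0 h, beside 649, 732 and 471 of all 13136 genes. Over the 3 times, under TMM, 8 were higher and 3 lower in siIGF2BP1, 8 and 1 in siIGF2BP2, and 6 and 1 in siIGF2BP3. Of all genes, 39.7, 33.8 and 32.3% were called there. ERCC scaling of that mean gave 7, 10 and 13 higher and 0 lower, beside 4084, 6307 and 7203 of all genes. For the speed of loss 0 of 15 were called in each knockdown (edgeR), beside 0.0152, 0 and 0.0228% of all genes.

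Over the 24 libraries, the genes whose pattern was most like each client were found by Pearson's r of log2(TMM-scaled CPM + 1) over 9744 genes with a mean of at least 5 CPM. This is a description, since libraries share conditions and times and the loss over time dominates it. The 3 most alike were DLK1, HPD and KRT8 for ACTB (r of 0.9939 for DLK1) and PDCL, HNRNPLL and CSNK2A2 for BTRC (0.9706 for PDCL). They were MERTK, ZDHHC7 and BCAN-AS2 for SRF (0.9639 for MERTK), CLUHP3, KIF3C and GABRE for E2F1 (0.8596 for CLUHP3), and SNHG14, AKR1D1 and DDX3X for HMGA2 (0.9711 for SNHG14). Between clients, r ranged from -0.885 for ACTB and SRF to 0.645 for BTRC and SRF. ACTB and HMGA2, the 2 clients lost most slowly, had a negative r with each of the other 3.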

How the data were processed

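The clients and gene lists were chosen with earlier results of these data known. Per the labels, reads (single-end, 100 bp, stranded) were trimmed with Trimmomatic 0.39 and aligned to hg38 with HISAT2 2.1.0. The authors counted reads per GENCODE release 29 gene with HTSeq, and the deposited values are raw counts per gene, with 92 ERCC rows. Summary rows that name no gene (13.551 to 17.064% of reads, including 3.591 to 4.053% that matched several places) and 45 pseudoautosomal Y copies were left out, and 58207 of the 58676 identifiers had a symbol. Lengths, coordinates and 3′ UTRs came from GENCODE release 44 on hg38, using the canonical transcript.

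Genes with at least 1 CPM in at least 2 libraries were tested, two-sided, with edgeR 4.0.16 in R 4.3.3 (glmQLFit and glmQLFTest), over all 24 libraries. Levels were contrasts of 12 group means under TMM scaling. Loss was a line over time per condition, with library sizes set to the ERCC totals. Adjusted p-values are Benjamini-Hochberg over the 13136 genes, called under 0.05. Standard errors were derived from each effect and its F statistic, with 95% intervals. Half-lifetimes used first-order decay on ERCC-scaled means, averaging the 3 h and 6 h rates. The study converted CPM to attomoles by a linear fit to the ERCC RNAs, in place of which the ERCC total was used. The scripts were tested on simulated data. Alternatives were the other scaling, DESeq2 1.42.0, no filter, the conditions compared alone, a replicate block, the 6 h change alone and each library left out.

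Named genes were the 6 clients, the 3 siRNA targets, up to 4 genes per list with the largest called changes, and the 3 genes most like each client. Of the genes this rule names, 1 is not reported here. Counting depth (31843248 to 74252042 gene reads) limits what can be said of CD44. Intervals for the other clients include replicate spread. METTL1 knockdown libraries are not analysed here.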

Additional observations from a re-analysis of the deposited data

Results flagged for a closer look

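The mean level over the 3 times differed between knockdowns, by the direct test of that difference, in 11 client comparisons. All are on the log2 scale under TMM. They were 4 of 5 clients between siIGF2BP1 and siIGF2BP2, 3 of 5 between siIGF2BP1 and siIGF2BP3, and 4 of 5 between siIGF2BP2 and siIGF2BP3. Of all genes, 43, 37.9 and 30.4% were called in these comparisons. In siIGF2BP1 relative to siIGF2BP2, ACTB was 0.20 higher and E2F1 0.12 higher, and SRF (-0.14) and HMGA2 (-0.11) were lower. In siIGF2BP1 relative to siIGF2BP3, ACTB was 0.24 higher, and BTRC (-0.18) and HMGA2 (-0.19) were lower. In siIGF2BP2 relative to siIGF2BP3, ACTB was 0.04 higher and SRF 0.12 higher, and BTRC (-0.15) and HMGA2 (-0.09) were lower. Under ERCC scaling 3 of the 11 were no longer called: E2F1 between siIGF2BP1 and siIGF2BP2 (0.04, adjusted p = 0.638), and ACTB (0.00, adjusted p = 0.997) and SRF (0.08, adjusted p = 0.297) between siIGF2BP2 and siIGF2BP3. It added 1 call, with SRF lower in siIGF2BP1 than in siIGF2BP3 (-0.14, adjusted p = 0.026, beside -0.02, adjusted p = 0.685, under TMM). The E2F1 call was also lost in 6 of the 24 fits that left out 1 library, with adjusted p-values up to 0.195 (without the first siIGF2BP1 library at 6 h). The BTRC call between siIGF2BP2 and siIGF2BP3 was lost without the first siIGF2BP2 library at 0 h (-0.11, adjusted p = 0.0649) or at 6 h (-0.12, adjusted p = 0.0555).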

How the results depend on the processing

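Of 575 client values under other settings, 529 kept their direction and their side of the threshold, and of 2280 with 1 library left out, 2207 did. Under ERCC scaling 1 client was called at 0 h in siIGF2BP1 (HMGA2) and 1 in siIGF2BP2 (BTRC). Over the 3 times 2 were called in siIGF2BP3, BTRC and ACTB, the latter now as higher (0.108, adjusted p = 0.0324) and no longer as lower. Between siIGF2BP2 and siIGF2BP3 2 were called, BTRC and HMGA2. Of all 13136 genes, ERCC scaling called 649, 732, 7203 and 2384 in these comparisons, in that order. It reversed, against siControl, ACTB (0.04) and E2F1 (0.02) at 0 h in siIGF2BP3, and over the 3 times E2F1 in siIGF2BP1 (0.015), ACTB in siIGF2BP2 (0.108, now called, adjusted p = 0.0359), and ACTB (0.108), SRF (0.079), E2F1 (0.122) and HMGA2 (0.072) in siIGF2BP3, as well as E2F1 between siIGF2BP1 and siIGF2BP3 (-0.107). Without the filter, ACTB (-0.005) and SRF (-0.002) in siIGF2BP2 at 0 h changed sign. TMM scaling reversed the 6 h change of ACTB in siControl (0.746) and siIGF2BP2 (0.671) and of HMGA2 in siControl (0.369), siIGF2BP1 (0.406), siIGF2BP2 (0.301) and siIGF2BP3 (0.336). It also reversed slope differences from siControl: ACTB (-0.034), SRF (-0.069) and E2F1 (-0.085) in siIGF2BP1, ACTB (-0.075), BTRC (-0.096), E2F1 (-0.12) and HMGA2 (-0.068) in siIGF2BP2, and ACTB (-0.055), E2F1 (-0.091) and HMGA2 (-0.033) in siIGF2BP3, and between siIGF2BP1 and siIGF2BP3 ACTB (0.02) and E2F1 (0.006). TMM removes a change common to most genes by construction, and otherwise the cause was not tested.

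With 1 library left out (a lone replicate being assumed to vary like the other groups), the clients called at 0 h ranged from 1 to 2 in siIGF2BP2 and from 0 to 1 in siIGF2BP3. The other sign changes were in values that were not called. At 0 h these ranged from -0.099 to 0.064 for E2F1 in siIGF2BP1, -0.055 to 0.055 for SRF and -0.016 to 0.025 for ACTB in siIGF2BP2, and -0.135 to 0.017 for E2F1 in siIGF2BP3. The 6 h change of ACTB in siIGF2BP2 ranged from -0.095 to 0.072. Slope differences from siControl ranged from -0.077 to 0.282 for E2F1 in siIGF2BP1, from -0.085 to 0.251 for BTRC, -0.058 to 0.245 for E2F1 and -0.037 to 0.222 for HMGA2 in siIGF2BP2, and from -0.033 to 0.309 for E2F1 in siIGF2BP3. Between knockdowns, levels ranged from -0.068 to 0.005 for BTRC (siIGF2BP1 and siIGF2BP2), and from -0.033 to 0.051 for E2F1 and -0.033 to 0.001 for SRF (siIGF2BP1 and siIGF2BP3). Slope differences between siIGF2BP1 and siIGF2BP2 ranged from -0.143 to 0.161 for E2F1, -0.034 to 0.134 for ACTB and -0.138 to 0.02 for SRF. Between siIGF2BP1 and siIGF2BP3 they ranged from -0.096 to 0.101 for BTRC, -0.207 to 0.136 for E2F1, -0.065 to 0.031 for ACTB and -0.049 to 0.092 for HMGA2, and between siIGF2BP2 and siIGF2BP3 from -0.188 to 0.099 for E2F1, -0.144 to 0.024 for ACTB and -0.23 to 0.022 for HMGA2.

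The labels give both replicates of every group the same numbers, and the main fits did not use these to pair the samples. The correlation of replicate differences between groups ran from -0.042 to 0.103 over 66 pairs of groups. Between times of the same condition it ran from -0.022 to 0.089. Such values cannot show whether libraries of a condition with the same number came from the same transfected plate. With the replicate block, ACTB over the 3 times in siIGF2BP2 became called (-0.028, adjusted p = 0.0444), so that 4 clients were called there, and no other client call changed. A block within each condition, chosen after seeing the data, changed no client call for the slopes. ACTB in siIGF2BP2 was also called over the 3 times without the filter (-0.034), with only the conditions compared (-0.029), and without the second siControl library at 3 h (-0.035) or 6 h (-0.033). E2F1 between siIGF2BP2 and siIGF2BP3 became called with only the conditions compared (-0.106) and in 4 of the 24 fits with 1 library left out. TMM scaling gave half-lifetimes in siControl of 8.08 h for BTRC, 17 h for SRF and 16.5 h for E2F1.

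Over all genes, ERCC scaling called 649, 732 and 471 genes at 0 h in siIGF2BP1, siIGF2BP2 and siIGF2BP3, in place of 2093, 1593 and 1234, called 7203 in place of 4239 over the 3 times in siIGF2BP3, and 2384 in place of 3992 between siIGF2BP2 and siIGF2BP3. Slope differences from siControl, 2, 0 and 3 genes, became 8, 6 and 25 with DESeq2, 9, 22 and 12 without the filter, and 86, 72 and 195 from 0 and 6 h alone. They were 1 and 2 in siIGF2BP1 and siIGF2BP2 both with TMM and with the block within each condition, and 0 in siIGF2BP1 and siIGF2BP3 with only the conditions compared. Between knockdowns, where 0 were called, DESeq2, no filter, 0 and 6 h alone and TMM gave 1, 10, 13 and 0 genes for siIGF2BP1 and siIGF2BP2, 4, 3, 8 and 8 for siIGF2BP1 and siIGF2BP3, and 0, 3, 2 and 1 for siIGF2BP2 and siIGF2BP3. Without the second siControl library at 0 h, 542 genes were called for slope in siIGF2BP3 and 12 in siIGF2BP1, none of them a client. Leaving out a 0 h library lowered the counts at 0 h to as few as 1266, 823 and 591.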

Other observations

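Genes that SRF is known to drive, together with actin cytoskeleton genes, were called at 0 h as 4 higher and 2 lower of 30 tested in siIGF2BP1 and as 4 higher and 2 lower in siIGF2BP2, beside 15.9 and 12.1% of all genes called. In siIGF2BP3 12 were lower and 0 higher, beside 9.39% of all genes, with a median log2 difference of -0.14 beside 0.00 over all genes. ERCC scaling gave only 2 lower and 0 higher in siIGF2BP3, beside 471 of all 13136 genes called. CCN1, a secreted matrix protein, fell by 0.68 in siIGF2BP3 (adjusted p = 0.0032 by edgeR; -0.60, adjusted p = 0.00644, under ERCC scaling). TAGLN, an actin-binding protein, fell by 0.39 in siIGF2BP3 (adjusted p = 0.000114), and under ERCC scaling its difference was -0.30 (adjusted p = 0.0915). CCN2, another matrix protein, fell by 0.59 in siIGF2BP1 (adjusted p = 1.39e-09) and by 0.32 in siIGF2BP3 (adjusted p = 0.000204), and differed by 0.02 in siIGF2BP2. Under ERCC scaling the CCN2 difference was -0.62 in siIGF2BP1 (adjusted p = 2.37e-09) and -0.25 in siIGF2BP3 (adjusted p = 0.117), the latter no longer called. EGR1, an immediate early transcription factor, fell in all 3 knockdowns (-0.73, -0.67 and -0.91, adjusted p = 0.0061, 0.0151 and 0.0014), and on the ERCC scale too (adjusted p = 0.00153, 0.0259 and 0.000957). SRF mRNA itself was not called at 0 h in any of them.

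A list of 32 genes held genes that E2F factors are known to control, together with E2F factors and their partners. At 0 h 1 was higher and 2 lower in siIGF2BP1, 6 higher and 2 lower in siIGF2BP2, and 10 higher and 0 lower in siIGF2BP3. Calls in either direction were made for 15.9, 12.1 and 9.39% of all genes. Under ERCC scaling 0, 2 and 5 were higher and 0 lower, beside 649, 732 and 471 of all 13136 genes called. MCM3, a subunit of the replicative helicase, rose by 0.25 in siIGF2BP3 (adjusted p = 3.73e-08 by edgeR) and by 0.18 in siIGF2BP2 (adjusted p = 8.00e-06). CCNA2, the S-phase cyclin, rose by 0.26 in siIGF2BP3 (adjusted p = 0.000151) and by 0.22 in siIGF2BP1 (adjusted p = 0.000547). Under ERCC scaling the CCNA2 difference was 0.35 in siIGF2BP3 (adjusted p = 0.00352) and 0.20 in siIGF2BP1 (adjusted p = 0.218), where it was no longer called. In siIGF2BP2 the repressor E2F7 rose by 0.30 (adjusted p = 0.00626), and E2F6, another repressor, fell by 0.25 (adjusted p = 0.0189), a difference of -0.17 (adjusted p = 0.394) under ERCC scaling. E2F1 mRNA was not called at 0 h in any knockdown. For the speed of loss 0 genes of either list were called by edgeR in any knockdown. Of all genes, 0.0152, 0 and 0.0228% were called in siIGF2BP1, siIGF2BP2 and siIGF2BP3.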
